A study of Mus musculus with 24 samples.

Results

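The 45 genes described here encode the machinery of DNA replication and S phase, from origin licensing to the copying of chromatin behind the fork. They were taken as the rows of the deposited count tables that carry 45 listed gene symbols, out of 24421 symbols in each library. The rows were matched by symbol alone, but the list was drawn up with earlier results of these data known. All 45 were found and all 45 passed the filter on low counts, which kept 14693 genes. The study sequenced total RNA of 24 libraries of bone marrow-derived macrophages, which are macrophages grown in culture from mouse bone marrow, from C57BL/6J mice at an age of 12 weeks. The cells were either OGT knockout (KO) or wild type (WT), and each genotype was left unstimulated (M0) or given LPS, a bacterial cell wall component, at 100 ng/ml for 12 hours, or the cytokine IL-4 at 10 ng/ml for 12 hours. This gives 6 groups of 4 libraries: KO LPS, WT LPS, KO IL-4, WT IL-4, KO M0 and WT M0. Ogt encodes the enzyme that adds O-linked N-acetylglucosamine to serines and threonines of nuclear and cytosolic proteins. The sources used here do not give the part of Ogt that was deleted or any Cre driver. The labels number the libraries 1 to 4 in WT and 5 to 8 in KO and do not say whether they are separate animals or cultures, so a p-value reflects how these libraries vary, which may be technical.

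Before S phase, the origin recognition complex with Cdc6 and Cdt1 loads the ring of Mcm subunits onto DNA, and Cdc45 and the GINS complex turn that ring into the active helicase. Polymerases and primase then copy both strands while the clamp PCNA, placed by the RFC clamp loader, holds the polymerases on their template, and nucleotide enzymes supply the building blocks. Most of these genes are transcribed at the border of G1 and S phase under E2F transcription factors, which cyclin E with its kinase releases from the retinoblastoma proteins. Cultured bone marrow macrophages divide under their growth factor CSF-1. LPS is known to halt that division, and IL-4 is known to make resident macrophages of mouse tissues divide.

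The promoters of these genes often hold a short E2F motif, so the window from 250 bases before to 50 bases after each RefSeq start (GRCm38.p6) was searched for TTTCCCGC, TTTGGCGC, TTTCGCGC and TTTGCCGC on both strands. A window was given for 37 of the 45 genes, and 16 of those 37 (43.2%) held at least 1 match, against 4.41% of 11021 tested genes with a window and 2.27% of all 32851 windows. The shorter motif CCAAT stood in 23 of the 37 genes (62.2%), against 42.5% of tested genes. The motifs TTTGAA and TTCGAA, which are found in promoters of mitosis genes, stood in 8 of the 37 (21.6%), against 16.2% of tested genes. Matches of the 4 E2F motifs can overlap each other, as in Mcm5. The 6 stretches below lie upstream of the start of 1 window of each gene. They run 5′ to 3′ on the strand of the gene, with each E2F match in capitals. Cdca7, Uhrf1 and Mcm7 had IL-4 responses that differed between genotypes by the test. Mcm5, Mcm6 and Cdc6 are given for comparison within the licensing machinery. That start need not be the outermost one: the stretches of Uhrf1, Mcm7 and Cdc6 lie inside the RefSeq span of the gene. The stretch of Cdca7 reaches into its span. The sequences come from RefSeq, and a match is a description of letters, not of a bound site.
Cdca7 (chr2:72476108-72476195, plus strand): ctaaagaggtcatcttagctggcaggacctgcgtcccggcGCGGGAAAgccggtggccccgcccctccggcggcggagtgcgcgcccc
Uhrf1 (chr17:56304088-56304175, plus strand): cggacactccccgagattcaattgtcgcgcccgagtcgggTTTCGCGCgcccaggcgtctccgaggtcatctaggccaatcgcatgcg
Mcm7 (chr5:138172001-138172088, minus strand): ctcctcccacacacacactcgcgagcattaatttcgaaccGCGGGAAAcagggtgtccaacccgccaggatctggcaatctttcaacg
Mcm5 (chr8:75109316-75109407, plus strand): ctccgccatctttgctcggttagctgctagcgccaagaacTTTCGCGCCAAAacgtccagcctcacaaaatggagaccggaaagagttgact
Mcm6 (chr1:128359706-128359855, minus strand): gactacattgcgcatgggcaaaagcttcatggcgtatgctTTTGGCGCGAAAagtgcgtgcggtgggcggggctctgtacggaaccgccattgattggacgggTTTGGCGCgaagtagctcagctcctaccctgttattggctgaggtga
Cdc6 (chr11:98907973-98908060, plus strand): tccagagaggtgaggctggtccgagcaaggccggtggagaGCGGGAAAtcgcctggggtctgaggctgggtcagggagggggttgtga
In Cdca7, Mcm7 and Cdc6 the capitals are TTTCCCGC read on the other strand. In Mcm5, 2 matches overlap. Mcm6 holds 3 matches, of which 2 overlap.

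Counts per library summed to 63429271 to 94942464 in 21 libraries. The other 3, WT LPS libraries 1 and 2 and KO LPS library 7, held 209368, 201097 and 172771 counts. In these 3 shallow libraries the 45 genes together had 234, 217 and 187 counts, with 4, 8 and 12 of them at 0, and a count of 0 allows up to 15.5, 15.7 and 17.9 CPM there (3 counts, counting error only). Levels are in CPM, which are counts scaled to a common TMM-corrected library total. For LPS they are given for the deep libraries, with the raw counts of the shallow ones beside them, and a fitted difference uses all 24 libraries. Ogt itself had 34.2, 37.6 and 37.0 CPM in the deep KO LPS libraries and 53.8 CPM in the shallow one, against 55.0 and 57.2 CPM in the deep WT LPS libraries and 56.7 and 68.0 CPM in the shallow ones. Its level was 31.9 to 34.8 CPM in KO IL-4 against 49.2 to 58.2 CPM in WT IL-4, and in M0 it was 34.5 to 36.9 CPM in KO, while WT had 47.3 to 52.4 CPM. KO libraries 7 and 8 stood apart from 5 and 6 in the genes described here, as given further on. Markers of other cells differed between the libraries. The 8 stromal genes (Col1a1 foremost, none at 0) summed to 10800 to 14100 CPM in KO IL-4 against 7340 to 7894 CPM in WT IL-4, to 18710 to 18810 CPM in deep KO LPS against 13920 to 14200 CPM in deep WT LPS, and in M0 to 14750 to 19240 CPM in KO, with 10320 to 12020 CPM in WT. Of those 8, 7 were called higher in KO in IL-4, 6 in LPS and 6 in M0. The 8 endothelial genes summed to 20.1, 20.7, 49.1 and 48.7 CPM in KO IL-4 libraries 5 to 8 against 21.1 to 25.1 CPM in WT IL-4, to 87.8 to 116 CPM in deep KO LPS against 48.6 to 50.5 CPM in deep WT LPS, and in M0 to 26.4, 29.4, 82.3 and 85.0 CPM in KO libraries 5 to 8, with 16.7 to 21.7 CPM in WT. KO IL-4 libraries 5 and 6 thus lay slightly below all WT IL-4 libraries in this endothelial sum, and 7 and 8 above them. Single genes differed from the sum. Egfl7 (3.61 to 6.59 CPM in KO IL-4, 2.14 to 2.80 CPM in WT IL-4) was higher in every KO IL-4 library. So was Kdr (2.36 to 3.71 CPM against 1.34 to 1.68 CPM), and the IL-4 ranges of the other endothelial genes overlapped. The 8 macrophage genes (Lyz2 foremost) summed to 5277 to 5653 CPM in KO IL-4 against 5982 to 6676 CPM in WT IL-4, to 9551 to 10720 CPM in deep KO LPS against 15490 to 15610 CPM in deep WT LPS, and in M0 to 7447 to 9265 CPM in KO, with 11970 to 13580 CPM in WT. Of those 8, 1 was called lower (Lyz2) and 1 higher (Fcgr1) in KO in IL-4, 4 and 2 in LPS, and 3 and 0 in M0, and their median log2 difference in IL-4 was 0.02. Lyz2 alone had a mean of 3759 CPM in deep KO LPS against 8208 CPM in deep WT LPS. In M0 its mean was 5086 CPM in KO, with 9307 CPM in WT. Besides Lyz2, deep KO LPS lay below deep WT LPS for Adgre1, Csf1r and Itgam and above it for Cd68 and Mertk. In M0, KO lay below WT for Itgam and above it for Cd68. The other ranges in LPS and M0 overlapped. Of 7 erythroid genes, 3 passed the filter, and the hemoglobin genes Hba-a1, Hbb-bs and Hbb-bt were at 0 in the deep libraries of all groups. The sources used here do not say how reads shared between near-identical gene copies were counted, so these values need not mean absent RNA. Epor, the erythropoietin receptor gene, was called higher in KO in all 3 states, with 2.32 to 2.75 CPM in KO IL-4 against 0.938 to 1.30 CPM in WT IL-4. The part of these markers in the results that follow was not tested.

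The summed level of the 45 genes was highest in WT IL-4 and lowest in LPS. KO IL-4 libraries 5 to 8 had 2768, 2778, 2293 and 2350 CPM in all 45 genes together, against 3533, 3488, 3308 and 3438 CPM in WT IL-4 libraries 1 to 4. Deep KO LPS libraries had 1272, 1262 and 1183 CPM, against 1350 and 1346 CPM in the deep WT LPS libraries. KO M0 libraries had 1866, 1844, 1668 and 1676 CPM, against 1938, 2064, 1925 and 1851 CPM in WT M0. The genotypes were apart in IL-4 and in the deep LPS libraries with no overlap, and touched in M0, where KO library 5 lay above WT library 4. The mean of KO was 74.0% of the mean of WT in IL-4, 92.0% in the deep LPS libraries (96.0% with the shallow ones) and 90.7% in M0. Without Pcna, the most abundant of the genes, it was 70.2%, 84.2% (86.3% with the shallow ones) and 88.8%. IL-4 brought the sum to 177% of WT M0 in WT and to 131% of WT M0 in KO. In bulk RNA, fewer cells in S phase and less RNA of these genes per cell cannot be told apart. The shallow KO LPS library had 1118 CPM (95% exact Poisson interval 964 to 1291), and the shallow WT LPS libraries had 1207 CPM (1057 to 1372) and 1135 CPM (989 to 1297).

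**Figure D1:**
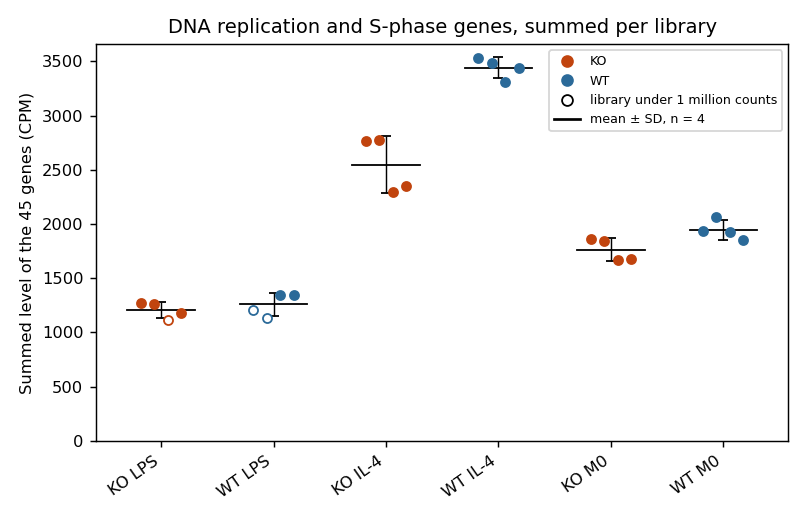
Summed level of the 45 genes in each library (y axis, CPM) for the 6 groups (x axis), with bars at the mean ± SD (n = 4) and open circles for the 3 shallow libraries. All 4 KO IL-4 libraries (2293 to 2778 CPM) sit below all 4 WT IL-4 libraries (3308 to 3533 CPM), while the LPS groups (1118 to 1272 CPM in KO, 1135 to 1350 CPM in WT) overlap once the shallow libraries are counted.

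KO and WT differed in nearly all 45 genes after IL-4 and in fewer of them without stimulation or after LPS. With edgeR's quasi-likelihood test at an adjusted p under 0.05, 43 of 45 were called lower in KO in IL-4 and 0 higher, against 18.2% and 17.9% of all genes tested. Pcna and Rfc2 were the genes not called there. The median log2 difference of KO against WT in IL-4 was -0.53 over the 45 genes and 0.01 over all genes tested, and the KO and WT libraries did not overlap for 43 of the 45, against 19.8% of all genes with all KO libraries lower. In LPS, 14 were called lower and 2 higher (Pcna and Rfc3), against 14.6% and 16.2% of all genes, with a median log2 difference of -0.19. In M0, 18 were called lower and 2 higher (Rfc2 and Cdca7), against 10.5% and 11.8% of all genes, with a median of -0.17. All KO libraries lay below all WT libraries for 8 of the 45 genes in LPS and 18 in M0, against 4.83% and 13.6% of all genes. The LPS count and share include the shallow libraries, where a few counts can make ranges overlap. Mcm3 had 31.2 to 34.6 CPM in deep KO LPS against 54.15 and 54.39 CPM in deep WT LPS. Its shallow KO library, with 10 counts, gave 59.8 CPM. The LPS count is therefore not comparable with those of IL-4 and M0. Mcm3, Mcm4, Mcm5, Rpa1, Rpa2, E2f1, E2f2, Uhrf1 and Chaf1a were called lower in KO in all 3 states, which is 20% of the 45 genes and 4.28% of all genes tested. A further 14 were called lower in 2 states and 20 in 1 state, against 7.72% and 15.05% of all genes tested. The M0 count moved most with the processing: DESeq2 called 7 lower, and 2 were called when label numbers 1 and 2, 3 and 4, 5 and 6, and 7 and 8 were summed in pairs, where the IL-4 count was 36 and 32. Without KO libraries 5 and 6 the counts of genes called lower were 28 in M0, 22 in LPS and 44 in IL-4, and without KO libraries 7 and 8 they were 16, 16 and 42. With 5 and 6 left out, library 8 was the only deep KO LPS library, beside the shallow library 7.

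**Figure D2:**
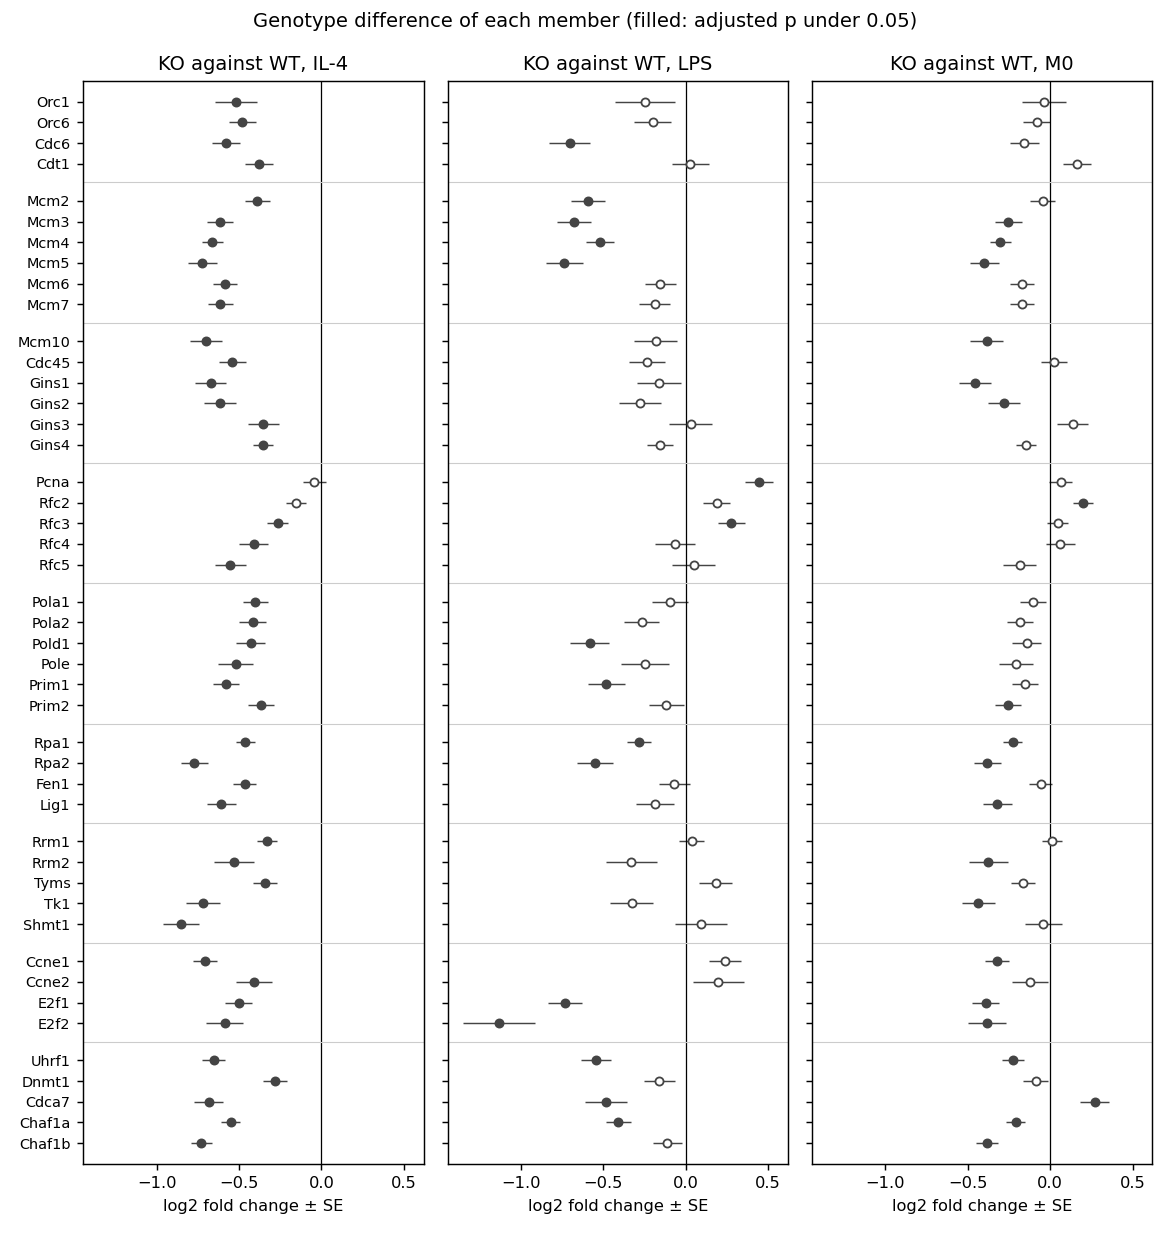
Log2 fold change of KO against WT (x axis, ± SE from edgeR) of each of the 45 genes (rows, in the order of their roles, with lines between roles) in IL-4, LPS and M0, with filled points at an adjusted p under 0.05. In IL-4 all 45 points lie left of 0 and 43 are filled, while in LPS and M0 fewer are filled, on both sides of 0.

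IL-4 raised all 45 genes in WT and 42 of them in KO by the test, and for 10 the smaller response in KO was itself called. In WT, IL-4 against M0 was called higher for 45 of 45 genes and lower for 0, against 30.9% and 29.3% of all genes tested, with a median log2 response of 0.84 (a fold of 1.79) and no overlap between IL-4 and M0 libraries in any of the 45, against 29.8% of all genes with all IL-4 libraries higher. In KO it was called higher for 42 of 45 and lower for 0, against 26.0% and 25.2% of all genes, with a median of 0.49 (a fold of 1.40) and no overlap in 40 of the 45, against 25.2% of all genes. Gins3, Gins4 and Rrm1 were the genes not called in KO. The test of the difference itself, the response of KO minus that of WT, was negative for all 45 genes with a median of -0.34 on the log2 scale, against 0.00 over all genes. Of the 45, 10 were called lower and 0 higher, against 0.667% and 0.470% of all genes: Cdca7, Shmt1, Cdc45, Cdt1, Uhrf1, Chaf1a, Mcm7, Fen1, Rrm1 and Rfc2. The response contrasts and KO against WT in IL-4 share the same libraries, so they are not separate lines of evidence. The count of 10 was not stable: DESeq2 called 3, the summed pairs called 0, the fit with no filter on low counts called 6, and leaving out single libraries gave 3 (WT M0 library 3 or 4, WT IL-4 library 1 or 2, KO IL-4 library 7) to 19 (WT M0 library 2). It was 23 without KO libraries 5 and 6, and 6 without KO libraries 7 and 8. DESeq2 gave no adjusted p for some of the 10 genes.

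**Figure D3:**
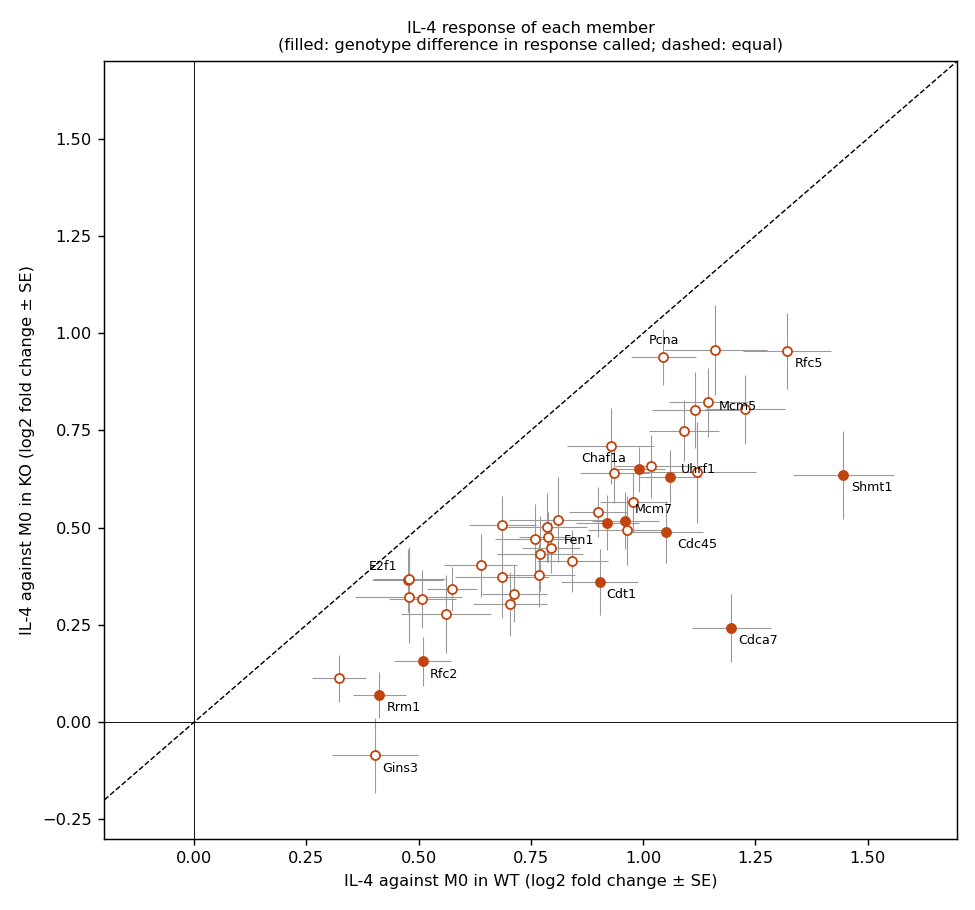
Log2 fold change of IL-4 against M0 in KO (y axis) and in WT (x axis) of each of the 45 genes, with SE bars from edgeR, filled where the genotype difference in response was called and a dashed line where both responses would be equal. All 45 points lie below the dashed line, Cdca7 (0.24 in KO, 1.20 in WT) and Shmt1 (0.64 in KO, 1.45 in WT) farthest from it.

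LPS lowered most of these genes in both genotypes. In KO, LPS against M0 was called lower for 39 of 45 and higher for 3 (Pcna, Rfc3 and Ccne1), against 36.0% and 31.2% of all genes, with a median log2 response of -0.59 over the 45 genes and -0.07 over all genes. In WT it was called lower for 37 of 45 and higher for 1 (Rfc3), against 28.3% and 29.4% of all genes, with a median of -0.57 and -0.01 over all genes. Without the 3 shallow libraries the counts of genes called lower were 39 and 36. The genotype difference in the LPS response was called lower for 4 of the 45 (Cdca7, Cdc6, Mcm2 and Mcm3) and higher for 2 (Ccne1 and Pcna), against 4.79% and 6.62% of all genes. These 6 calls moved with single libraries: leaving out one at a time gave 1 lower call (without WT LPS library 3) to 8 (without KO M0 library 8), and 1 to 4 higher calls. With WT LPS library 3 left out, library 4 was the only deep WT LPS library. Of the higher calls of LPS against M0, those of Pcna and Ccne1 in KO and of Rfc3 in WT were lost under several alternatives. That of Rfc3 in KO kept its call under every alternative run. With any 1 M0 library of the genotype left out, TMM took the shallow KO LPS library as its reference, which moved the median of all genes by -0.16 to -0.17 in KO and by -0.13 in WT on the log2 scale. Pcna and Ccne1 in KO and Rfc3 in WT were then not called. With the TMM factors of all 24 libraries kept, Pcna in KO kept its call under every single omission. Ccne1 in KO still lost its call without KO M0 library 6, 7 or 8 or KO LPS library 5 or 6. Rfc3 in WT still lost its call without WT M0 library 3 or 4 or WT LPS library 3 or 4.

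**Figure D4:**
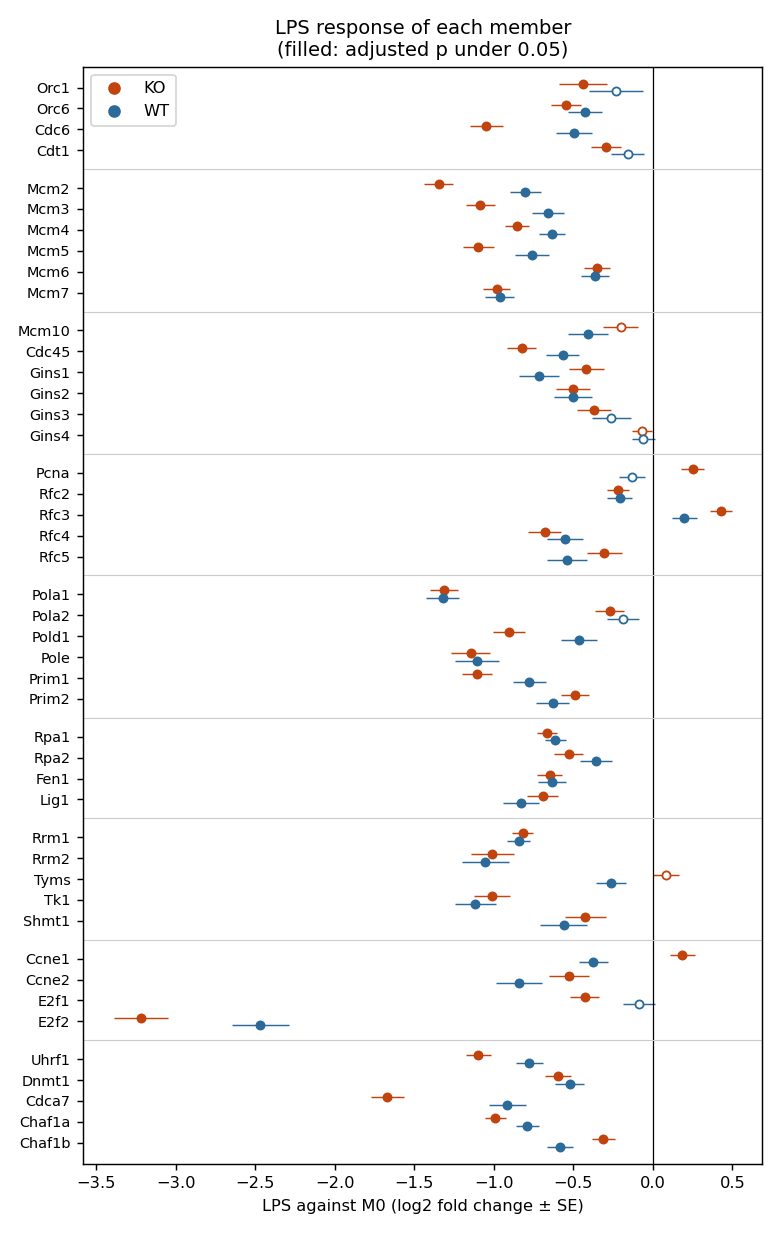
Log2 fold change of LPS against M0 (x axis, ± SE from edgeR) of each of the 45 genes (rows, in the order of their roles) in KO and WT, with filled points at an adjusted p under 0.05. Most points lie left of 0 in both genotypes, E2f2 farthest (-3.22 in KO, -2.47 in WT), and Pcna, Rfc3 and Ccne1 lie right of 0 in KO.

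The 4 licensing genes Orc1, Orc6, Cdc6 and Cdt1 load the helicase ring onto origins before S phase. All 4 were called lower in KO in IL-4, only Cdc6 among them in LPS, and none in M0. Cdc6, the ATPase that joins the origin complex, had 20.8, 19.9, 15.8 and 16.4 CPM in KO IL-4 libraries, against 27.8, 26.8, 27.1 and 27.3 CPM in WT IL-4 libraries. Cdc6 after LPS gave 5.05, 5.41 and 4.69 CPM in the deep KO libraries (1 count in the shallow one), against 8.45 and 8.22 CPM in the deep WT libraries (1 and 0 counts in the shallow ones). Unstimulated, Cdc6 had 11.5, 11.4, 9.60 and 9.28 CPM in KO libraries, against 12.1, 12, 11.7 and 10.8 CPM in WT libraries. Cdc6 was highest in IL-4 in both genotypes, all KO IL-4 libraries were below all WT IL-4 libraries, and the M0 ranges of KO and WT overlapped. The log2 difference of Cdc6 in KO against WT was -0.58 ± 0.087 in IL-4 (edgeR, adjusted p = 1.55e-05) and -0.71 ± 0.12 in LPS (adjusted p = 9.64e-05). Its LPS response was -1.05 in KO and -0.50 in WT on the log2 scale, a difference of -0.55 ± 0.15 (adjusted p = 0.0189). Cdt1, which brings the Mcm ring and is destroyed once S phase starts, had 53.6, 52.8, 49.2 and 42.1 CPM in KO IL-4 libraries, against 68.1, 64.5, 60.6 and 64.2 CPM in WT IL-4 libraries. In M0 Cdt1 had 38.7, 40, 35.8 and 39.5 CPM in KO libraries, against 35.8, 37.1, 31.7 and 33.2 CPM in WT libraries. Cdt1 in LPS had 37.1, 32.1 and 25.4 CPM in the deep KO libraries (3 counts in the shallow one), against 29.5 and 31.8 CPM in the deep WT libraries (6 and 8 counts in the shallow ones). KO lay below WT in IL-4 with no overlap, the ranges overlapped in M0 and LPS, and only the IL-4 difference was called. Cdt1 rose with IL-4 by 0.36 in KO and 0.90 in WT on the log2 scale, and the difference of -0.54 ± 0.12 was called (edgeR, adjusted p = 0.0269). Orc1 and Orc6, subunits of the origin recognition complex, differed in IL-4 by -0.52 and -0.48 on the log2 scale.

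The 6 subunits of the Mcm ring, Mcm2 to Mcm7, unwind DNA ahead of the fork. All 6 were called lower in KO in IL-4, with log2 differences of -0.39 (Mcm2) to -0.72 (Mcm5), and Mcm3, Mcm4 and Mcm5 were called lower in all 3 states. Mcm5 had 118, 126, 92.8 and 93.1 CPM in KO IL-4 libraries, against 184, 181, 168 and 176 CPM in WT IL-4 libraries. In LPS, Mcm5 had 30.9, 27.3 and 27 CPM in the deep KO libraries (5 counts in the shallow one), against 51.7 and 43.9 CPM in the deep WT libraries (9 and 6 counts in the shallow ones). Mcm5 without stimulation had 64.8, 65.9, 57.3 and 55.1 CPM in KO libraries, against 81.7, 85.7, 82.6 and 70.8 CPM in WT libraries. In each state every KO library lay below every WT library for Mcm5, and WT IL-4 libraries held the highest values of all. Its log2 difference of KO against WT was -0.72 ± 0.087 in IL-4, -0.74 ± 0.11 in LPS and -0.40 ± 0.088 in M0 (edgeR, adjusted p = 9.92e-07, 2.11e-05 and 0.00174). Mcm4 had 63.8, 63, 54.4 and 53.1 CPM in KO IL-4 libraries, against 94.6, 91.3, 92.7 and 92 CPM in WT IL-4 libraries. Mcm4 levels in LPS were 23.1, 22.7 and 20.9 CPM in the deep KO libraries (5 counts in the shallow one), against 31.1 and 33.2 CPM in the deep WT libraries (8 and 3 counts in the shallow ones). Mcm4 in M0 gave 43.1, 42.6, 37.6 and 37.8 CPM in KO libraries, against 50.1, 52.1, 47.2 and 49.3 CPM in WT libraries. The KO values of Mcm4 were below the WT values in IL-4 and M0 without overlap, and among the deep libraries in LPS. Its log2 differences were -0.66 ± 0.065 in IL-4, -0.52 ± 0.085 in LPS and -0.30 ± 0.065 in M0 (adjusted p = 5.67e-08, 4.59e-05 and 0.00154). Mcm2 and Mcm3 fell further after LPS in KO, with log2 responses of -1.35 and -1.08 in KO against -0.80 and -0.66 in WT, with called differences of -0.55 ± 0.13 and -0.43 ± 0.13 (adjusted p = 0.00619 and 0.0349). Mcm7 rose with IL-4 by 0.52 in KO and 0.96 in WT, a called difference of -0.44 ± 0.10 (adjusted p = 0.037). Mcm6, with 3 E2F motif matches, differed between the IL-4 responses by -0.41 and did not pass the test (adjusted p = 0.0513).

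Cdc45, the 4 GINS genes and Mcm10 activate the loaded helicase. All 6 were called lower in KO in IL-4, none in LPS, and Gins1, Gins2 and Mcm10 in M0. Gins1 had 14.2, 14, 11.2 and 14.1 CPM in KO IL-4 libraries, against 21.3, 21.5, 20.4 and 22.1 CPM in WT IL-4 libraries. Its LPS values were 5.24, 6.68 and 6.49 CPM in the deep KO libraries (0 counts in the shallow one), against 7.04 and 6.74 CPM in the deep WT libraries (1 and 0 counts in the shallow ones). Gins1 in M0 had 7.94, 8.55, 8.69 and 7.48 CPM in KO libraries, against 10.7, 13.2, 10.9 and 10.1 CPM in WT libraries. KO Gins1 lay below WT with no overlap in IL-4 and M0, with differences of -0.67 ± 0.096 and -0.46 ± 0.098 on the log2 scale (edgeR, adjusted p = 8.45e-06 and 0.00152). Mcm10, which helps the helicase start, had 20.5, 18.5, 14.9 and 14.7 CPM in KO IL-4 libraries, against 29.5, 27.8, 26.1 and 28 CPM in WT IL-4 libraries. Mcm10 after LPS had 8.41, 9.70 and 7.65 CPM in the deep KO libraries (0 counts in the shallow one), against 9.84 and 9.70 CPM in the deep WT libraries (1 and 1 counts in the shallow ones). Mcm10 in M0 showed 10.1, 10.8, 9.22 and 9.19 CPM in KO libraries, against 13.7, 13.2, 12.8 and 11.7 CPM in WT libraries. Again KO and WT did not overlap in IL-4 or M0, and the log2 differences were -0.70 ± 0.096 and -0.39 ± 0.098 (adjusted p = 4.99e-06 and 0.00569). Mcm10 was among the few genes that LPS did not lower by the test in KO (-0.20, adjusted p = 0.103), while it fell in WT (-0.41, adjusted p = 0.00619). The genotype difference in its LPS response was not called. Cdc45 had 19.8, 21.7, 17.1 and 18.4 CPM in KO IL-4 libraries, against 29.2, 29.5, 26.6 and 26.6 CPM in WT IL-4 libraries. Cdc45 in M0 had 14.7, 14.2, 12.4 and 13.4 CPM in KO libraries, against 13.3, 14.9, 13.6 and 12.2 CPM in WT libraries. The M0 values of Cdc45 overlapped, and its IL-4 response was 0.49 in KO against 1.05 in WT, a called difference of -0.56 ± 0.11 (adjusted p = 0.0125). Gins3 was the single gene of the 45 with a negative IL-4 response in KO, -0.09 ± 0.096 on the log2 scale and not called (adjusted p = 0.478), against 0.40 ± 0.096 in WT (adjusted p = 0.000762). The difference between these 2 responses of Gins3 was not called. Gins4 did not pass the test for LPS in either genotype, and differed between genotypes in IL-4 by -0.36 on the log2 scale. Gins2 differed in IL-4 by -0.62 and in M0 by -0.28.

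The clamp PCNA and its loader subunits Rfc2 to Rfc5 held 3 of the 4 genotype calls that ran opposite to most others, the other being Cdca7 in M0. Of these 5 genes, 3 were called lower in KO in IL-4, 2 higher in LPS and 1 higher in M0. Pcna had 523, 508, 406 and 469 CPM in KO IL-4 libraries, against 483, 504, 478 and 496 CPM in WT IL-4 libraries. In LPS the Pcna level was 298, 298 and 286 CPM in the deep KO libraries (52 counts in the shallow one), against 228 and 223 CPM in the deep WT libraries (40 and 30 counts in the shallow ones). Pcna in M0 was 259.6, 266, 229 and 238 CPM in KO libraries, against 226, 247, 247 and 231 CPM in WT libraries. Its ranges overlapped between genotypes in IL-4 and M0, while in LPS all KO libraries lay above all WT libraries, the shallow ones included. Pcna was called higher in KO in LPS, by 0.44 ± 0.085 on the log2 scale (edgeR, adjusted p = 0.000285), and its difference in IL-4 was -0.04 ± 0.071 (adjusted p = 0.67). The genotype difference in its LPS response was 0.38 ± 0.11 (adjusted p = 0.0263). IL-4 raised Pcna by 0.94 in KO and 1.04 in WT, the smallest gap between genotypes among the 45 genes. Pcna has processed pseudogene copies, and the sources used here do not say how reads shared with them were counted. Rfc2, a small subunit of the loader, had 64.2, 64.5, 58.5 and 59.2 CPM in KO IL-4 libraries, against 69.3, 72.5, 63.5 and 68.8 CPM in WT IL-4 libraries. Rfc2 in LPS had 52.1, 47.7 and 42.5 CPM in the deep KO libraries (8 counts in the shallow one), against 43.5 and 40.9 CPM in the deep WT libraries (6 and 5 counts in the shallow ones). Rfc2 in M0 had 56.9, 57.1, 50.9 and 56.2 CPM in KO libraries, against 47.7, 51.2, 48.3 and 45.3 CPM in WT libraries. KO library 7 in M0 sat below WT library 2, and the other 3 KO M0 libraries above all WT ones. The M0 difference of 0.20 ± 0.063 was called higher in KO (adjusted p = 0.0233), the IL-4 difference of -0.15 ± 0.063 was not called (adjusted p = 0.057), and the IL-4 response of KO minus that of WT was -0.35 ± 0.089 (adjusted p = 0.0485). Rfc5 had 34.4, 33.7, 30.6 and 29.1 CPM in KO IL-4 libraries, against 46.9, 48.2, 44.6 and 47.7 CPM in WT IL-4 libraries. Rfc5 after LPS gave 13.8, 13.2 and 13.2 CPM in the deep KO libraries (1 count in the shallow one), against 11.2 and 14.4 CPM in the deep WT libraries (7 and 0 counts in the shallow ones). Rfc5 in M0 gave 18.6, 17.6, 14.4 and 15.3 CPM in KO libraries, against 18.2, 20.7, 17.5 and 18.7 CPM in WT libraries. Rfc5 had the largest IL-4 response of the 45 genes in WT after Shmt1, 1.32 ± 0.098 on the log2 scale against 0.95 ± 0.098 in KO, and its log2 difference of KO against WT in IL-4 was -0.55 ± 0.096 (adjusted p = 8.75e-05). Rfc3 rose with LPS, by 0.43 in KO (adjusted p = 5.25e-06) and 0.20 in WT (adjusted p = 0.0334), and was higher in KO in LPS by 0.28 ± 0.083 (adjusted p = 0.0126). In IL-4 the same gene was lower in KO, with a log2 difference of -0.27 ± 0.063 (adjusted p = 0.00193). Rfc4 differed in IL-4 by -0.41 (adjusted p = 0.000681).

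The polymerases and primase (Pola1, Pola2, Pold1, Pole, Prim1 and Prim2) make the primers and copy the strands. All 6 were called lower in KO in IL-4 with log2 differences of -0.37 (Prim2) to -0.58 (Prim1), Pold1 and Prim1 in LPS, and Prim2 in M0. Pola1, the catalytic subunit that extends primers, had 27.6, 26.2, 23.3 and 23.8 CPM in KO IL-4 libraries, against 33.5, 31.5, 34.4 and 33.8 CPM in WT IL-4 libraries. Its LPS levels were 6.38, 7.14 and 6.12 CPM in the deep KO libraries (0 counts in the shallow one), against 6.82 and 7.09 CPM in the deep WT libraries (3 and 0 counts in the shallow ones). Pola1 in M0 showed 16.9, 17.1, 15.8 and 15 CPM in KO libraries, against 17.9, 17.8, 17.2 and 16.8 CPM in WT libraries. LPS libraries were far below M0 in both genotypes, and the LPS response of Pola1 was -1.31 ± 0.090 in KO and -1.32 ± 0.10 in WT (edgeR, adjusted p = 9e-13 and 2.19e-11). Genotypes differed in IL-4, by -0.40 ± 0.075 (adjusted p = 0.000204), but in M0 the difference was -0.10 (adjusted p = 0.349). Prim2, the large primase subunit, had 20.7, 21, 19.6 and 18.7 CPM in KO IL-4 libraries, against 25.3, 25.6, 25.7 and 26.6 CPM in WT IL-4 libraries. Prim2 after LPS gave 10.8, 11.2 and 11.4 CPM in the deep KO libraries (0 counts in the shallow one), against 13.3 and 11 CPM in the deep WT libraries (0 and 1 counts in the shallow ones). Prim2 unstimulated gave 15.7, 16.2, 15.4 and 14.9 CPM in KO libraries, against 19, 18, 17.8 and 19.4 CPM in WT libraries. KO lay below WT without overlap in IL-4 and M0, with log2 differences of -0.37 ± 0.079 and -0.26 ± 0.080 (adjusted p = 0.000809 and 0.0221). Pold1 and Pole, the catalytic subunits of the polymerases of the lagging and leading strands, differed in IL-4 by -0.43 and -0.52, and Pold1 in LPS by -0.58 ± 0.12 (adjusted p = 0.000422). Pola2, the regulatory subunit beside Pola1, differed in IL-4 by -0.42.

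Rpa1 and Rpa2 coat single-stranded DNA, and Fen1 and Lig1 trim and join Okazaki fragments. All 4 were called lower in KO in IL-4, Rpa1 and Rpa2 in LPS, and Rpa1, Rpa2 and Lig1 in M0. Rpa2 had 28, 26.5, 23.6 and 23.3 CPM in KO IL-4 libraries, against 43.5, 46.1, 39.5 and 44.1 CPM in WT IL-4 libraries. Rpa2 values in LPS were 13.3, 14.1 and 13.4 CPM in the deep KO libraries (1 count in the shallow one), against 18.2 and 20.9 CPM in the deep WT libraries (9 and 3 counts in the shallow ones). Rpa2 in M0 had 20, 19.6, 19.1 and 19.4 CPM in KO libraries, against 23.7, 29, 25.4 and 23.8 CPM in WT libraries. In all 3 states every KO library was below every WT library, and the log2 differences were -0.77 ± 0.081 in IL-4, -0.55 ± 0.11 in LPS and -0.38 ± 0.081 in M0 (edgeR, adjusted p = 1.3e-07, 0.000307 and 0.00135). Fen1, the flap nuclease, had 64, 67.7, 56.1 and 58.5 CPM in KO IL-4 libraries, against 89.5, 88.1, 78.7 and 83.6 CPM in WT IL-4 libraries. Fen1 in LPS gave 26.1, 27.3 and 29.7 CPM in the deep KO libraries (2 counts in the shallow one), against 28.7 and 29.8 CPM in the deep WT libraries (3 and 4 counts in the shallow ones). Fen1 in M0 had 45.5, 45.5, 41.6 and 40 CPM in KO libraries, against 42.9, 48.8, 46.3 and 41.7 CPM in WT libraries. The KO and WT ranges of Fen1 overlapped in M0 and in LPS and were apart in IL-4, where the log2 difference was -0.46 ± 0.070 (adjusted p = 1.68e-05). IL-4 raised Fen1 by 0.51 in KO and 0.92 in WT, a called difference of -0.41 ± 0.099 (adjusted p = 0.0436). Rpa1 differed by -0.46 in IL-4, -0.28 in LPS and -0.23 in M0, and was called in each. Lig1 differed by -0.61 ± 0.088 in IL-4 and -0.32 ± 0.089 in M0 (adjusted p = 1.08e-05 and 0.0101).

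Rrm1 and Rrm2 are the subunits of ribonucleotide reductase, Tyms and Tk1 make thymidine nucleotides, and Shmt1 feeds one-carbon units to thymidylate synthesis. All 5 were called lower in KO in IL-4, none in LPS, and Tk1 and Rrm2 in M0. Shmt1 had 7.96, 7.54, 7.08 and 6.39 CPM in KO IL-4 libraries, against 13.8, 12.4, 12.1 and 14.1 CPM in WT IL-4 libraries. Shmt1 in LPS had 3.50, 3.21 and 3.62 CPM in the deep KO libraries (2 counts in the shallow one), against 3.73 and 2.85 CPM in the deep WT libraries (0 and 0 counts in the shallow ones). Shmt1 in M0 had 4.47, 3.91, 4.80 and 5.52 CPM in KO libraries, against 4.81, 4.44, 5.24 and 4.70 CPM in WT libraries. Without IL-4 the genotypes overlapped, and after IL-4 every KO library was below every WT library. Shmt1 had the largest fall in KO against WT in IL-4 of the 45 genes, -0.85 ± 0.11 on the log2 scale (edgeR, adjusted p = 2.49e-06), and responses to IL-4 of 0.64 ± 0.11 in KO and 1.45 ± 0.11 in WT that differed by -0.81 ± 0.16 (adjusted p = 0.00964). Tk1, the S-phase thymidine kinase, had 66.5, 69.2, 49.5 and 49.6 CPM in KO IL-4 libraries, against 100.4, 104, 87.7 and 93.7 CPM in WT IL-4 libraries. Tk1 after LPS gave 24.9, 23.5 and 23.8 CPM in the deep KO libraries (3 counts in the shallow one), against 29.1 and 31.5 CPM in the deep WT libraries (5 and 5 counts in the shallow ones). Tk1 in M0 gave 55.3, 53.9, 41.4 and 42.8 CPM in KO libraries, against 65.5, 72.9, 64.6 and 58.8 CPM in WT libraries. KO libraries 7 and 8 were the lowest of the 4 in IL-4 and M0, and all KO values were below the WT values in all 3 states. The log2 differences of Tk1 were -0.72 ± 0.10 in IL-4 and -0.44 ± 0.10 in M0 (adjusted p = 6.71e-06 and 0.00279), and that in LPS was -0.33 (adjusted p = 0.0609). Rrm1 had 180.5, 177, 159 and 157 CPM in KO IL-4 libraries, against 218, 217, 201 and 212 CPM in WT IL-4 libraries. Rrm1 in M0 had 166, 155, 161 and 159 CPM in KO libraries, against 149, 172, 154 and 162 CPM in WT libraries. Rrm1 did not pass the test for IL-4 in KO (0.07, adjusted p = 0.334) and rose in WT (0.41, adjusted p = 1.43e-06), and these responses differed by -0.34 ± 0.084 (adjusted p = 0.0439). Rrm2 differed in IL-4 by -0.53 and in M0 by -0.38. Tyms was called lower after LPS in WT (-0.26) but not in KO (0.08, adjusted p = 0.391), with a difference of 0.34 that did not pass the test (adjusted p = 0.0689).

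Cyclin E (Ccne1 and Ccne2) and the activating factors E2f1 and E2f2 start the program. All 4 were called lower in KO in IL-4. E2f1 had 46.1, 47.5, 40.8 and 41.8 CPM in KO IL-4 libraries, against 63.2, 67, 62.9 and 56.4 CPM in WT IL-4 libraries. E2f1 in LPS had 26.7, 27.6 and 22.2 CPM in the deep KO libraries (1 count in the shallow one), against 43.5 and 40.1 CPM in the deep WT libraries (10 and 9 counts in the shallow ones). E2f1 in M0 had 38.7, 35.4, 31.2 and 31.1 CPM in KO libraries, against 46.2, 46.9, 44.9 and 41.1 CPM in WT libraries. KO was below WT in every library of every state, and the deep WT LPS values reached into the WT M0 range while all KO LPS values lay below all KO M0 values. The log2 differences of E2f1 were -0.50 ± 0.081 in IL-4, -0.73 ± 0.10 in LPS and -0.39 ± 0.081 in M0 (edgeR, adjusted p = 3.65e-05, 8.3e-06 and 0.00105). Its LPS response was -0.43 ± 0.089 in KO (adjusted p = 0.000146) and -0.09 ± 0.099 in WT (adjusted p = 0.469), a difference of -0.34 that missed the threshold (adjusted p = 0.0947). E2f2 had 17.2, 18, 11.9 and 11.5 CPM in KO IL-4 libraries, against 22.4, 22.7, 21.7 and 21.2 CPM in WT IL-4 libraries. E2f2 after LPS had 0.842, 0.880 and 0.714 CPM in the deep KO libraries (0 counts in the shallow one), against 1.76 and 1.75 CPM in the deep WT libraries (1 and 1 counts in the shallow ones). E2f2 in M0 had 7.71, 8.64, 7.49 and 6.33 CPM in KO libraries, against 9.89, 10.6, 9.93 and 9.04 CPM in WT libraries. LPS left E2f2 under 1 CPM in the deep KO libraries, with log2 responses of -3.22 ± 0.17 in KO and -2.47 ± 0.18 in WT, the largest of the 45 genes, and KO was lower than WT in all 3 states. Ccne1 had 15.2, 16.4, 15.1 and 14.6 CPM in KO IL-4 libraries, against 26.8, 26, 23.9 and 23.3 CPM in WT IL-4 libraries. Ccne1 in LPS had 14.8, 14.7 and 11.9 CPM in the deep KO libraries (4 counts in the shallow one), against 11.7 and 11.8 CPM in the deep WT libraries (3 and 2 counts in the shallow ones). Ccne1 in M0 had 12.9, 11.5, 11.9 and 12.4 CPM in KO libraries, against 16.2, 16.4, 14.3 and 14.1 CPM in WT libraries. All KO libraries were below all WT libraries in IL-4 and M0, while in LPS the deep KO values were above the deep WT values and the shallow ones overlapped. Ccne1 was lower in KO in IL-4 and M0 (-0.71 ± 0.073 and -0.32 ± 0.074, adjusted p = 1.09e-07 and 0.00231), whereas in LPS the difference was 0.24 and not called (adjusted p = 0.0681). The LPS response of Ccne1 was 0.19 in KO and -0.37 in WT, and the difference of 0.56 ± 0.12 was called (adjusted p = 0.00337). The response in KO alone was not called when KO M0 library 6 was left out (-0.01) and under DESeq2 (0.10). Ccne2 was lower in KO in IL-4, with a log2 difference of -0.41 (adjusted p = 0.00423).

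Chaf1a and Chaf1b place histones on new DNA, Dnmt1 and Uhrf1 copy its methylation, and Cdca7 is a partner of the remodeler Hells needed for that copying. All 5 were called lower in KO in IL-4. Cdca7 had 17.8, 16.9, 14.7 and 15.5 CPM in KO IL-4 libraries, against 27.6, 26.2, 24.3 and 26.5 CPM in WT IL-4 libraries. Cdca7 in LPS had 4.28, 5.25 and 3.48 CPM in the deep KO libraries (0 counts in the shallow one), against 6.12 and 5.85 CPM in the deep WT libraries (2 and 2 counts in the shallow ones). Cdca7 in M0 had 14.1, 13.3, 13.8 and 13.8 CPM in KO libraries, against 11.8, 12.5, 10.4 and 11 CPM in WT libraries. It was the single gene of the 45 with all KO libraries above all WT libraries in M0, which 13.5% of all genes showed, and KO libraries were below WT in IL-4 and LPS. The log2 differences of Cdca7 were -0.69 ± 0.086 in IL-4, -0.49 ± 0.13 in LPS and 0.27 ± 0.087 in M0 (edgeR, adjusted p = 1.68e-06, 0.00441 and 0.0276). IL-4 raised it by 0.24 ± 0.086 in KO and 1.20 ± 0.087 in WT, and its log2 response to LPS was -1.67 ± 0.10 in KO and -0.92 ± 0.12 in WT. Both responses differed between genotypes, by -0.95 ± 0.12 for IL-4 (adjusted p = 8.79e-05) and -0.75 ± 0.15 for LPS (adjusted p = 0.00187). Chaf1b had 19.1, 20.3, 17.6 and 17.7 CPM in KO IL-4 libraries, against 32.2, 31.1, 31 and 29.4 CPM in WT IL-4 libraries. Chaf1b after LPS had 12.2, 10.4 and 10.5 CPM in the deep KO libraries (1 count in the shallow one), against 11.3 and 12.5 CPM in the deep WT libraries (1 and 3 counts in the shallow ones). Chaf1b unstimulated had 13.6, 14.3, 13.5 and 13.4 CPM in KO libraries, against 18.4, 18.7, 17.2 and 17.1 CPM in WT libraries. The KO and WT values of Chaf1b were apart in IL-4 and M0 and overlapped in LPS, with log2 differences of -0.73 ± 0.065, -0.38 ± 0.065 and -0.11 ± 0.087 in IL-4, M0 and LPS (adjusted p = 1.09e-08, 0.000149 and 0.353). Its partner Chaf1a was lower in KO in all 3 states, with log2 differences of -0.55 in IL-4, -0.41 in LPS and -0.21 in M0. Uhrf1 had 84.3, 88.9, 68.9 and 69 CPM in KO IL-4 libraries, against 124, 122, 119 and 125 CPM in WT IL-4 libraries. Uhrf1 in M0 had 52.3, 52.4, 48.3 and 47.9 CPM in KO libraries, against 61.7, 59.8, 57.5 and 56 CPM in WT libraries. IL-4 raised Uhrf1 by 0.63 in KO and 1.06 in WT, a called difference of -0.43 ± 0.097 (adjusted p = 0.0289), and the difference for Chaf1a was -0.34 ± 0.080 (adjusted p = 0.0364). Dnmt1 had the smallest called IL-4 difference outside the clamp loader, -0.28 ± 0.074 (adjusted p = 0.00468).

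**Figure D5:**
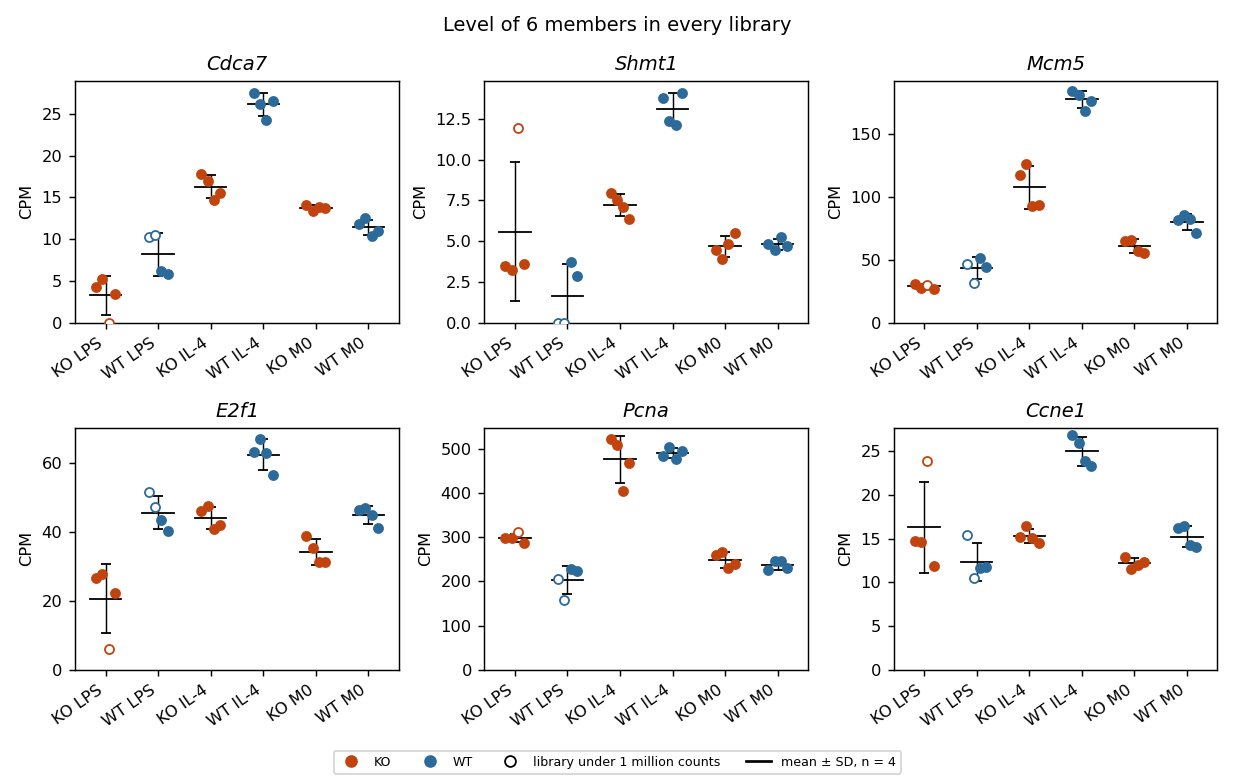
Level (y axis, CPM) of Cdca7, Shmt1, Mcm5, E2f1, Pcna and Ccne1 in each library of the 6 groups (x axis), with bars at the mean ± SD (n = 4) and open circles for the 3 shallow libraries, whose values rest on few counts. KO IL-4 lies below WT IL-4 for 5 of the 6 genes and overlaps it for Pcna, which in LPS is higher in KO.

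Genes with and without an E2F match were set side by side. The median log2 difference of KO against WT in IL-4 was -0.58 over the 16 genes with a match, -0.53 over the 21 with a window and no match, and -0.47 over the 8 with no window. For the IL-4 response the medians in the same order were 0.54, 0.45 and 0.40 in KO and 0.97, 0.80 and 0.73 in WT. After LPS they were -0.94, -0.55 and -0.50 in KO and -0.59, -0.56 and -0.63 in WT. The ranges of the classes overlapped in every contrast, and no test was made.

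Levels differ widely among the genes. Per kilobase of GENCODE exon length, Pcna was the most abundant in WT M0 with 157 CPM per kb, followed by Tk1 (45.5), Rrm1 (39.8), Rrm2 (39.5) and Mcm3 (28.2), and Orc1 was the least with 0.90 CPM per kb. Within KO, libraries 7 and 8 were both below libraries 5 and 6 for 41 of the 45 genes in IL-4 and 33 in M0, against 28.6% and 28.9% of all genes. Within WT, libraries 3 and 4 were both below libraries 1 and 2 for 19 of the 45 in IL-4 and 21 in M0, against 21.3% and 13.4% of all genes. KO libraries 5 and 6 were both below all WT libraries for 43 genes in IL-4 and 18 in M0, against 26.5% and 20.6% of all genes. KO libraries 7 and 8 were so for 45 genes in IL-4 and 30 in M0, against 29.0% and 23.4% of all genes. The same pairs of KO libraries differed in the summed stromal markers, with 14100 and 12430 CPM in IL-4 libraries 7 and 8 against 10930 and 10800 CPM in 5 and 6, and 19240 and 18480 CPM in M0 libraries 7 and 8 against 14750 and 16210 CPM in 5 and 6. In LPS, deep KO library 8 had 18710 CPM of stromal markers, against 18810 and 18760 CPM in 5 and 6. The pairs also differed in the summed endothelial markers given above. Summed macrophage markers were 5277 and 5315 CPM in KO IL-4 libraries 7 and 8 against 5504 and 5653 CPM in 5 and 6. In M0 these were 7447 and 7684 CPM in KO libraries 7 and 8 against 9265 and 8588 CPM in 5 and 6. The part of these markers in the split was not tested.

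Beyond the 45 genes, 53 other replication genes were tested. Of these, 36 were called lower and 2 higher in KO against WT in IL-4, against 18.2% and 17.9% of all genes. In LPS 13 were called lower and 7 higher, against 14.6% and 16.2%, and in M0 8 and 4, against 10.5% and 11.8%, and the median log2 difference in IL-4 was -0.34. IL-4 was called to raise 41 and lower 3 of them in KO, against 26.0% and 25.2% of all genes. In WT it was called to raise 46 and lower 1, against 30.9% and 29.3%. Nasp, a histone chaperone, was the 1 gene of the 53 with a called genotype difference in its IL-4 response, -0.55 ± 0.078 on the log2 scale (edgeR, adjusted p = 0.000329). Dna2, a helicase-nuclease of Okazaki fragment processing, went the other way and was higher in KO in IL-4 (0.69 ± 0.086, adjusted p = 1.62e-06) and in M0 (0.90 ± 0.088, adjusted p = 6.27e-08). After LPS, 32 of the 53 were called lower and 10 higher in KO, against 36.0% and 31.2% of all genes. In WT the counts were 30 and 9, against 28.3% and 29.4%. The deoxynucleotide hydrolase gene Samhd1 and the kinase gene Dck, which acts in nucleoside salvage, were among those that rose, by 2.68 and 2.40 in KO and 2.48 and 2.05 in WT on the log2 scale (all adjusted p at most 1.05e-12).

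Of 30 genes for E2F partners, retinoblastoma proteins, cyclins and their kinases and inhibitors, 29 were tested. In IL-4, 13 were called lower and 4 higher in KO against WT, beside 18.2% and 17.9% of all genes. In LPS the counts were 6 and 6, beside 14.6% and 16.2%, and in M0 8 and 3, beside 10.5% and 11.8%. Myc, a growth-promoting transcription factor, rose with IL-4 by 0.85 ± 0.080 in KO and 1.5 ± 0.081 in WT, and the difference of -0.65 ± 0.11 was called (edgeR, adjusted p = 0.00376). Tfdp1, the DNA-binding partner of the E2F factors, also responded less in KO, with a difference of -0.36 ± 0.074 (adjusted p = 0.015), and was lower in KO in IL-4, with a log2 difference of -0.45 ± 0.053 (adjusted p = 7.09e-07). Cdk2, the kinase of cyclin E, was lower in KO in IL-4 (-0.48), LPS (-0.57) and M0 (-0.31). Cdkn1c, an inhibitor of that kinase, was higher in KO in M0 (1.39 ± 0.25, adjusted p = 0.000274). After LPS the inhibitor gene Cdkn1a rose in KO by 1.23, and its LPS response was larger in KO than in WT by 0.61 ± 0.097 (adjusted p = 0.00018).

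Of 28 mitosis genes, 27 were called lower and 0 higher in KO in IL-4, 17 and 1 in LPS, and 21 and 0 in M0, beside those same shares of all genes. LPS lowered 28 of 28 in KO and 28 of 28 in WT, against 36.0% and 28.3% of all genes. The spindle motor gene Kif11 had LPS responses of -1.83 in KO and -1.71 in WT on the log2 scale. IL-4 raised 19 in KO and 23 in WT, against 26.0% and 30.9% of all genes. Their median log2 difference of KO against WT in IL-4 was -0.35. For the genotype difference in the IL-4 response, the smallest adjusted p among the 28 was that of the spindle checkpoint kinase gene Ttk (-0.38 ± 0.13, edgeR adjusted p = 0.168).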

How the data were processed

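Total RNA of 24 macrophage libraries was sequenced. The authors deposited 1 table of whole-number counts per gene symbol and library. Reads were aligned with TopHat2 2.1.0 to mm10 (GRCm38) and counted with HTSeq 0.9.1, per the submitters' processing notes. The sources used here do not give the library kit, strand setting or gene annotation. Reads from genes that overlap, on either strand, therefore cannot be told apart, and genes with near-identical copies, such as Pcna and Tyms, are uncertain to that extent. The 5 summary lines that name no gene (8.758 to 9.977% of a library) were left out.

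The counts of all 24 libraries were fitted together with edgeR 4.0.16 in R 4.3.3, with TMM scaling, the filterByExpr filter by group (14693 of 24421 genes kept), a coefficient for each of the 6 groups, leaving 18 residual degrees of freedom. The quasi-likelihood test was used, and a gene was called where its Benjamini-Hochberg adjusted p, over all genes tested, was under 0.05. There were 9 contrasts: KO against WT in the 3 states, both stimuli against M0 within either genotype, and for both stimuli the response of KO minus that of WT. The procedure was tested on simulated data. CPM used the TMM-scaled totals. Means ± SD are over 4 libraries, and intervals and floors cover counting error only. Within each group, none of the 36 pairs of libraries was a duplicate by a chi-square comparison of counts. Depth was 63429271 to 94942464 counts in 21 libraries and 172771 to 209368 in 3 LPS libraries, where single genes have few counts.

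The 45 genes and the other lists were chosen with earlier results of these data known. Values in every library are given, in each role, for the gene with the smallest adjusted p in KO against WT in M0 and that with the largest response in WT, and for E2f1. Every gene called against the main direction is named, and of the other lists the 3 genes with the smallest adjusted p per contrast could be named. Per-library values of Cdc45, Pcna, Ccne1, Rrm1 and Uhrf1, and the values of Cdk2, Cdkn1c and Dna2 in several states, were added after their values were seen. The alternatives were DESeq2 size factors, no filter, the DESeq2 1.42.0 Wald test, omission of the 3 shallow libraries, label numbers summed in pairs, fits on the contrast's groups alone, a replicate block, omission of KO libraries 5 and 6 or 7 and 8, and omission of each library in turn. Leaving out libraries with the TMM factors of all 24 kept was added after seeing the data.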

Additional observations from a re-analysis of the deposited data

Results flagged for a closer look

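The 4 libraries of each IL-4 and M0 group were compared for the 18 genes chosen by the naming rule and for the summed level. In 3 of these 76 groups of values, 1 library stood far from the other 3, where chance gives about 1 in 20 groups. Gins1 had 11.15 CPM in KO IL-4 library 7, Rfc2 had 50.85 CPM in KO M0 library 7 and Chaf1b had 14.26 CPM in KO M0 library 6.

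The response to IL-4 differed between genotypes for 10 genes, all lower in KO, against 0.667% of all genes tested. Each is given as the log2 response of KO minus that of WT with edgeR's adjusted p. Cdca7 differed by -0.95 (adjusted p = 8.79e-05), Shmt1 by -0.81 (0.00964), Cdc45 by -0.56 (0.0125) and Cdt1 by -0.54 (0.0269). Uhrf1 differed by -0.43 (adjusted p = 0.0289), Mcm7 by -0.44 (0.037), Fen1 by -0.41 (0.0436) and Rfc2 by -0.35 (0.0485). Chaf1a and Rrm1 both differed by -0.34 (adjusted p = 0.0364 and 0.0439).

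The response to LPS differed for 6 genes on the same scale, 4 lower and 2 higher, against 4.79% and 6.62% of all genes tested. It was lower in KO for Cdca7 (-0.75, edgeR adjusted p = 0.00187), Mcm2 (-0.55, 0.00619), Cdc6 (-0.55, 0.0189) and Mcm3 (-0.43, 0.0349), and higher in KO for Ccne1 (0.56, 0.00337) and Pcna (0.38, 0.0263). Cdca7 is the gene named for both stimuli. The calls for both stimuli moved with the processing, as given below.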

How the results depend on the processing

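The fall of these genes in KO IL-4 kept its direction and stayed within 1.5 times the count of 43 under every alternative run (32 to 44). The LPS and IL-4 responses within a genotype likewise kept their main counts within 1.5 times, except the few higher calls after LPS. Over the single genes, 5743 values stayed on their side of the threshold with the same direction, 486 no longer passed it and 1 reversed: Ccne1 for LPS against M0 in KO, -0.0090 without KO M0 library 6 (range -0.0090 to 0.32 over single libraries left out, and 0.14 to 0.28 with the TMM factors kept).

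For KO against WT in M0 (18 lower, 2 higher), DESeq2 gave 7 and 0, summed pairs 2 and 0, and omission of KO 5 and 6 gave 28 and 1. Single omissions gave 14 to 20 lower (12 to 18 with TMM factors kept) and 0 to 2 higher. In LPS (14 lower, 2 higher), omission of KO 5 and 6 gave 22 and 1, of KO 7 and 8 gave 4 higher, DESeq2 size factors gave 4 higher, and the DESeq2 test, summed pairs and the contrast's groups alone gave 1 higher. Single omissions gave 13 to 15 lower and 1 (WT LPS library 3 or 4) to 4 (KO LPS library 8) higher. For LPS against M0 in KO (3 higher), DESeq2, summed pairs and the groups alone gave 1, and single omissions 1 to 3 (2 to 3 with factors kept). In WT (1 higher), DESeq2 size factors, no filter, the DESeq2 test, summed pairs and the groups alone gave 0, and single omissions 0 to 1. Single omissions gave 36 to 41 higher for IL-4 in KO (38 to 42 with factors kept).

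For the genotype difference in the LPS response (4 lower, 2 higher), DESeq2 gave 0 and 1, summed pairs 0 and 0, the groups alone 7 lower, omission of KO 7 and 8 gave 10 lower and of KO 5 and 6 gave 1 higher. Single omissions gave 1 (WT LPS library 3) to 8 (KO M0 library 8) lower, 1 to 6 with factors kept, and 1 to 4 higher, 1 to 3 with factors kept. For IL-4 (10 lower), no filter gave 6, DESeq2 3, summed pairs 0, omission of KO 5 and 6 gave 23 and of KO 7 and 8 gave 6, and single omissions 3 to 19. The cause of these shifts was not tested.

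With the label number as a replicate block, 12 genes were called lower for the LPS difference and 32 for the IL-4 difference. The numbers were not taken as pairs, since the labels do not say what they mark and not every same-numbered pair of libraries correlated above 0.1: 7 of 7 KO pairs did (0.393 to 0.628) and 4 of 6 WT pairs (-0.0955 to 0.657). The own number was best in 8 of 13, a hint from the data and not from the design. Depth limits the 3 shallow LPS libraries, where the median of the 45 genes was 3 counts or fewer. With KO 5 and 6 omitted, library 8 was the only deep KO LPS library. With WT LPS library 3 omitted, library 4 was the only deep WT LPS library.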
